A study of Homo sapiens with 4 samples.

Results

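Caveolins and cavins are the proteins that shape caveolae, and their 6 genes CAV1, CAV2, CAVIN1, CAVIN2, CAVIN3 and EHD2 are described here among 21469 measured genes. Each was represented by the array row that carries its symbol alone, and each had 1 such row. The genes were chosen by family, and the family was selected on the lower level of CAVIN2 in nocodazole-treated cells. All differences of the 6 genes between treatments are therefore descriptions and carry no test.

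Caveolae are small flask-shaped pits of the plasma membrane. Caveolin oligomers sit in the inner leaflet of the membrane, cavins form a coat over them from the cytosol, and EHD2, an ATPase of the Eps15 homology domain family, gathers at the neck and holds the pit at the surface. Caveolae flatten when the membrane is stretched, take part in lipid handling, and are abundant in mesenchymal cells, fat cells, muscle and endothelium.

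The cells were U2OS, a human osteosarcoma line, and 4 arrays were analysed, 2 per group, numbered replicates 2 and 3 in the labels. Both groups were serum-starved for 24 h, held in thymidine for 24 h, released for 3 h and then given either the solvent DMSO or nocodazole for 48 h. Nocodazole depolymerises microtubules and arrests cells in mitosis, and the series title concerns cells that slipped out of that arrest. The titles of all 4 samples hold the term PLKO.1, which is also the name of a lentiviral vector; the labels give no more about it.

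Expression was read on 1 Affymetrix Human Transcriptome Array 2.0 per sample, and values are log2 expression. The array medians of the deposited values ran from 5.68 to 6.38, and the median difference over all genes, nocodazole minus DMSO, was -0.45. Quantile normalization of the 4 arrays brought that median to 0.00, and differences below are on that scale unless the deposited scale is named. What lowered the deposited nocodazole arrays was not tested. Background was taken as the median of 23 antigenomic control rows on each array, 3.72 to 4.81. The osteoblast-lineage and mesenchymal markers RUNX2, SPARC, COL1A1, COL1A2, ALPL and VIM were above background on all 4 arrays, with VIM at 5.73 to 7.09 over it. Of the measured markers of other cell types, 2 of 4 endothelial, 2 of 4 fat cell, 5 of 5 striated muscle, 4 of 4 epithelial and 2 of 3 leukocyte markers were also above background on all arrays, by at most 2.62. ADIPOQ, FABP4 and PTPRC were below it on every array. MYOD1, the highest of the muscle markers, read 2.17 to 2.51 over background, so a value above background does not by itself show that a gene was expressed. None of the 26 measured markers passed the test used for the related genes below.

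The stretch before the start of CAVIN2 is shown because CAVIN2 is the member with the large difference, and that of CAV1, the main structural gene, is shown beside it as a member with a smaller one. The sequences are from RefSeq (GRCh38.p14), which listed promoters for 4 of the 6 genes (CAV1, CAV2, CAVIN2 and EHD2). Each runs 5′ to 3′ along the gene and ends at the base before the annotated start. The CAVIN2 sequence is chr2:191847089-191847338 on the minus strand, and the CAV1 sequence is chr7:116524759-116525008 on the plus strand. Capitals mark a match to GGAATG, the core motif of TEAD transcription factors.
CAVIN2: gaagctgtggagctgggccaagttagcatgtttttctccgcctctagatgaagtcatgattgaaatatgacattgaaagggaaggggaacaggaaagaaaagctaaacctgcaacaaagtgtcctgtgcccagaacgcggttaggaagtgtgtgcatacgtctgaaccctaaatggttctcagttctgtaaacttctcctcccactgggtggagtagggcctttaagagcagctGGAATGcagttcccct
CAV1: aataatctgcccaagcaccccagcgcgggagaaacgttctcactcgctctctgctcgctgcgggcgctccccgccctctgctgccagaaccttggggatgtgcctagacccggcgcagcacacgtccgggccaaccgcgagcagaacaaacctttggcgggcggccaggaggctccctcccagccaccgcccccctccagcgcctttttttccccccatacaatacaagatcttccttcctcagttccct

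CAVIN2 held GGAATG 16 to 11 bases before its start. Among the 7 promoter windows of the 4 genes that was the 1 match to GGAATG, read on both strands. Of all 35116 RefSeq promoters, 11.9% held it in a window of the same 250 bases. None of the 7 windows held TATAAA or a CArG box, the motif of serum response factor, which 10.7% and 1.16% of all promoters held. The G and C content of the CAVIN2 window was 48.0%, against 63.6% to 83.2% in the windows before the first listed starts of CAV1, CAV2 and EHD2 and 58.0% at the median of all promoters. A match describes the letters of this window and nothing more.

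CAVIN2, also known as SDPR (serum deprivation response), encodes a cavin that binds phosphatidylserine and protein kinase C and bends caveolar membrane into tubules. Its deposited values were 7.49 and 7.60 on DMSO replicates 2 and 3 and 6.12 and 6.07 on nocodazole replicates 2 and 3. Both nocodazole arrays were well below both DMSO arrays, and the spread within each group was small beside that gap. After quantile normalization the means were 7.29 ± 0.12 with DMSO and 6.32 ± 0.09 with nocodazole (SD, n = 2). The difference was -0.97 ± 0.14 (SE), with a 95% interval of -1.30 to -0.65, or a 1.96-fold lower level. As deposited it was -1.45 ± 0.18, 2.72-fold lower, of which the array-wide shift is a part. Fewer cells with the transcript and less of it per cell cannot be told apart in RNA of whole cultures.

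The CAVIN2 difference stood far out in the distribution of all genes, a place that follows from the choice of the family for this fall. A difference as low or lower was seen in 44 genes, CAVIN2 included, which is 0.205% of those measured. CAVIN2 was above background on every array, by 2.68 and 3.57 with DMSO and by 1.76 and 2.35 with nocodazole. On the nocodazole arrays MYOD1 read higher, at 2.17 and 2.51, so the CAVIN2 values there do not by themselves show expression. Whether background limits the size of the CAVIN2 difference was not tested. With any 1 array left out, the CAVIN2 difference ran from -1.09 to -0.85. None of the 6 osteoblast-lineage and mesenchymal markers passed the test, and their differences ran from -0.66 for COL1A1 and -0.63 for SPARC (limma adjusted p = 0.0786 and 0.0737) to 0.43 for ALPL. The summed linear level of the 6 markers, as deposited, was 3384 and 3788 on the DMSO arrays and 1855 and 2090 on the nocodazole arrays. The array-wide shift is a part of that gap. A linear sum is weighted to the brightest markers, here VIM and SPARC, and does not describe each of the 6. The part of the markers in the CAVIN2 difference was not tested.

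**Figure D1:**
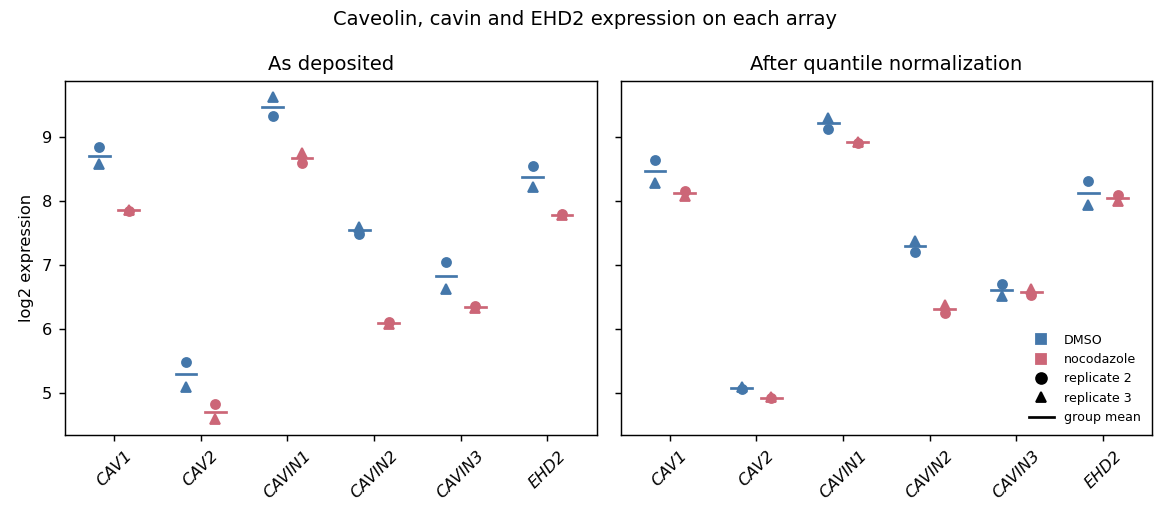
Log2 expression of the 6 genes on each array, as deposited (left) and after quantile normalization (right), with DMSO in blue, nocodazole in red, replicate 2 as circles, replicate 3 as triangles and group means as bars. After normalization the CAVIN2 means of 7.29 and 6.32 remain apart, while the groups of CAVIN3 and EHD2 overlap; levels are not comparable between genes.

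CAVIN1, also called PTRF, encodes the cavin without which caveolae do not form, and it had a much smaller difference. Its deposited values were 9.32 and 9.62 with DMSO and 8.59 and 8.74 with nocodazole. After quantile normalization they were 9.13, 9.30, 8.91 and 8.92 in the same order, so the groups did not overlap, with a gap of 0.20. The difference was -0.29 ± 0.11 (95% interval -0.54 to -0.04), and 2218 genes, 10.3% of all, had one as low.

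CAVIN3, also called PRKCDBP, encodes a cavin that binds protein kinase C delta, and its levels were close in both groups after normalization. The deposited values were 7.04 and 6.62 with DMSO and 6.37 and 6.33 with nocodazole. Its row was 2.01 to 2.61 above background, a range that also holds the MYOD1 values. After quantile normalization they were 6.71 and 6.51 against 6.53 and 6.63, and the groups overlapped. The difference was -0.03 ± 0.14, with a 95% interval of -0.37 to 0.30.

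CAV1 encodes caveolin-1, the main structural protein of caveolae outside striated muscle. Its deposited values were 8.84 and 8.57 with DMSO and 7.84 and 7.87 with nocodazole. The DMSO arrays were apart by 0.36 after quantile normalization, at 8.64 and 8.28, and the nocodazole arrays were at 8.16 and 8.09. The groups did not overlap, with a gap of 0.13 that was smaller than the distance between the DMSO arrays. The difference was -0.34 ± 0.14 (95% interval -0.67 to -0.01), and it was -0.52 without DMSO replicate 3 and -0.16 without DMSO replicate 2.

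CAV2 encodes caveolin-2, which pairs with caveolin-1, and its gene lies beside CAV1 on chromosome 7. Its row was the dimmest of the 6 relative to background, 0.48 to 1.07 above it. The deposited values were 5.49 and 5.10 with DMSO and 4.83 and 4.60 with nocodazole. After quantile normalization both groups were tight, at 5.07 and 5.10 against 4.92 and 4.93. The difference was -0.16 ± 0.17 (95% interval -0.55 to 0.23).

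EHD2 had deposited values of 8.54 and 8.23 with DMSO and 7.79 and 7.78 with nocodazole. After quantile normalization the nocodazole arrays, at 8.09 and 8.00, lay between the DMSO arrays, at 8.32 and 7.93. The difference was -0.08 ± 0.15 (95% interval -0.43 to 0.27).

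All 6 differences were below 0, with a median of -0.23 against 0.00 over all genes. Both nocodazole arrays lay below both DMSO arrays for 4 of the 6 genes after quantile normalization, where 18.7% of all genes did so, and for 6 of 6 as deposited, where 66.3% did so. On the deposited values limma called 4 of the 6 lower at an adjusted p under 0.05 (CAV1, CAVIN1, CAVIN2 and EHD2), as it did 24.9% of all genes, or 24.8% where genes below background on every array were not counted as called. On both scales it called 1, CAVIN2, as it did 0.0978% of all genes in that direction. CAVIN2 was barely under the cut after quantile normalization (limma adjusted p = 0.0495). These counts come from the contrast that chose the family, and nothing is read from them. The CAVIN2 call was lost after median centring of the arrays and without a trend of variance with level, where 1 gene in all was called. With any 1 array left out it was lost as well, but 1 group then holds 1 array and the loss was not particular to CAVIN2.

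**Figure D2:**
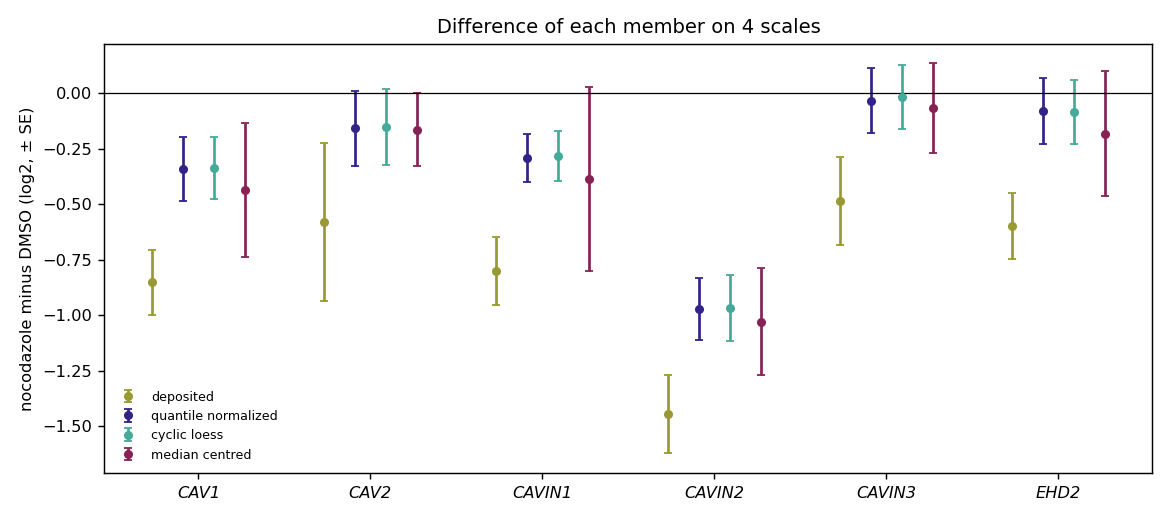
Nocodazole minus DMSO (log2) for each of the 6 genes on 4 scales, with limma standard errors as bars. The deposited values are lower than the others for every gene, and CAVIN2 lies at -0.97 after quantile normalization, at -0.97 after cyclic loess and at -1.03 after median centring, below the other 5 on each scale.

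**Figure D3:**
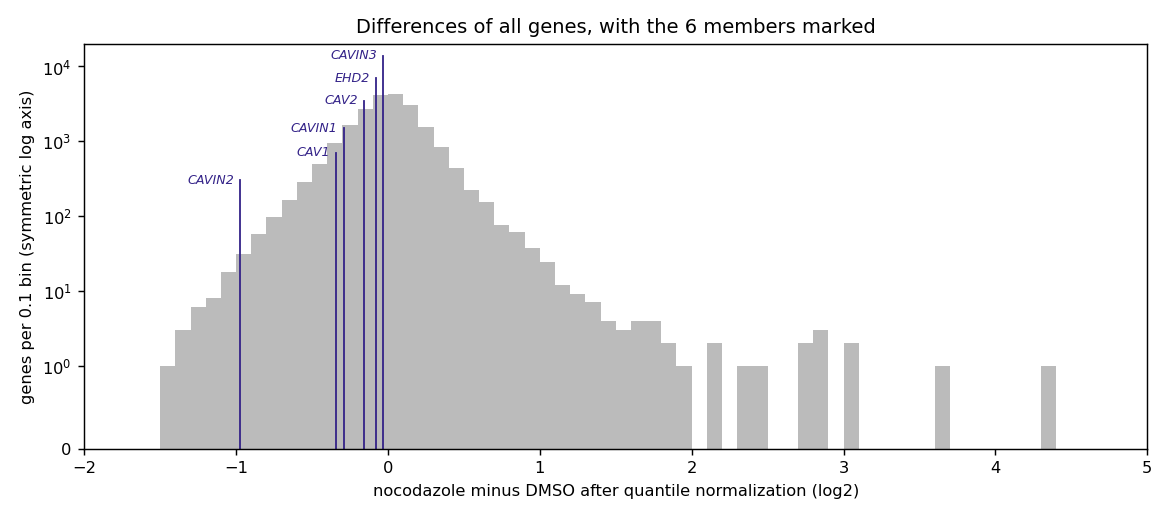
Number of genes per 0.1 bin of the difference after quantile normalization, on a symmetric log axis, over 21469 genes, with the 6 genes marked by lines whose heights carry no value. CAVIN2 lies in the lower tail, where 44 genes are as low, and the other 5 lie in the body of the distribution.

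The genes with the pattern most like CAVIN2 over the 4 arrays were ASPM, DCHS2, LCTL, TENM3 and PLXDC2. Likeness was the root mean square difference between profiles, each taken as the quantile-normalized values minus the gene's mean, among 16687 other genes above background on all arrays. For these 5 genes it ran from 0.036 for ASPM to 0.071 for PLXDC2. The rows of DCHS2 and PLXDC2 were dim, 0.31 and 0.98 above background at the lowest. ASPM, which encodes a spindle pole protein of dividing cells, had values of 7.35 and 7.51 with DMSO and 6.32 and 6.55 with nocodazole. TENM3, which encodes a teneurin, a cell-surface adhesion protein, had 7.62 and 7.72 against 6.74 and 6.85. The differences of the 5 ran from -0.99 to -0.86, and since they were picked for their likeness they carry no test.

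The other caveolar genes were not among the near neighbours of CAVIN2. CAVIN1 was the nearest of them, at a root mean square difference of 0.34 and rank 1072, followed by CAV1 at 0.37 and rank 1659 and CAV2 at 0.41 and rank 2712. CAVIN3 and EHD2 ranked 6696 and 7146. Nearest to CAV1 were ALDH3B1, RPS27P25 and RHNO1, at 0.025 to 0.028. Nearest to CAVIN1 were TEAD1, SAP30 and SCRN1, at 0.004 to 0.016. Over 4 arrays many genes of small difference are alike by this measure. The measure is not scaled for the size of a difference, and the family was chosen for that of CAVIN2. The ranks of the other members therefore largely restate that choice, and nothing is read from them.

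**Figure D4:**
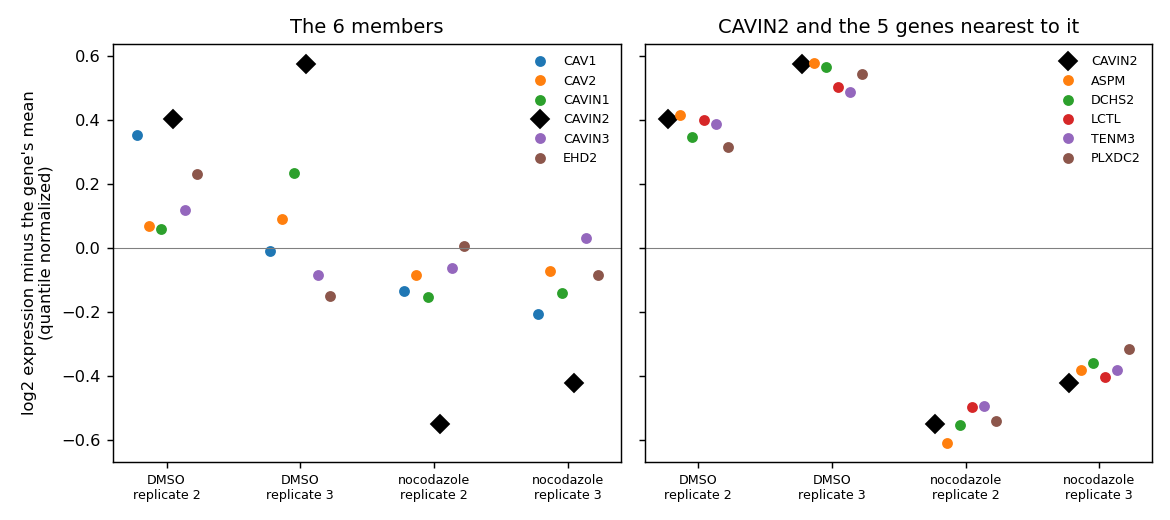
Quantile-normalized log2 expression minus the gene's own mean, by array, for the 6 genes (left) and for CAVIN2 with the 5 genes nearest to it (right). CAVIN2, drawn as diamonds, is at 0.40 and 0.57 on the DMSO arrays and at -0.55 and -0.42 on the nocodazole arrays, and the point of another member farthest from 0 is CAV1 at 0.35 on DMSO replicate 2.

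Genes beside the 6 on the chromosome, by the RefSeq gene table, did not pass the test. This test was limma's moderated t over all 21469 genes, and a gene counts as risen or fallen only if the quantile-normalized and the deposited values both gave an adjusted p below 0.05 with the same sign and the gene was above background on at least 1 array. NABP1, which encodes a single-stranded DNA-binding protein and lies on one side of CAVIN2 on chromosome 2, had a difference of 0.51 ± 0.19 (limma adjusted p = 0.429), and of -0.03 as deposited. It was 0.22 without DMSO replicate 2 and 0.77 without DMSO replicate 3. On the other side, TMEFF2, which encodes a transmembrane protein, was below background on all 4 arrays. MET, the hepatocyte growth factor receptor gene beyond CAV1 on chromosome 7, had a difference of 0.00 ± 0.16, and TES, a focal adhesion gene beyond CAV2, was below background on all arrays. STAT3, which encodes a transcription factor of cytokine signalling and lies next to CAVIN1, had one of -0.02 ± 0.10 (limma adjusted p = 0.992). ATP6V0A1, a proton pump subunit gene on the other side of CAVIN1 whose row was near background (0.32 above it at the lowest), had one of 0.12 ± 0.18. CCKBR, a gastrin receptor gene beside CAVIN3, had one of 0.08 ± 0.15. SMPD1, the acid sphingomyelinase gene on the other side of CAVIN3, had one of -0.14 ± 0.14 (limma adjusted p = 0.884), and of -0.63 as deposited (limma adjusted p = 0.00379). BICRA and SELENOW, on either side of EHD2, had differences of -0.10 ± 0.14 and -0.28 ± 0.14, the latter -0.15 without nocodazole replicate 3. As deposited, MET, STAT3, BICRA and SELENOW were, like SMPD1, lower at a limma adjusted p under 0.05, as were 24.9% of all genes. CAVIN2-AS1, a long non-coding RNA gene that overlaps CAVIN2, was not analysed here.

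Of 90 further genes of caveolae and related membrane systems in 8 lists, 78 were measured, and by this rule 0 rose and 0 fell, where 0.242% of all genes passed in either direction. At an unadjusted p under 0.05 after quantile normalization 15 of the 78 passed, 9 lower and 6 higher, which is 19.2% against 9.38% of all genes. As deposited limma called 40 lower and 0 higher, 51.3% of the 78 against 24.9% of all genes called lower. Of the 78, all but CD36, GAS2 and CAVIN4 were above background on all 4 arrays. Of all genes, 79.6% to 83.9% were above it on a given array. The shares of listed and of all genes, here and below, therefore compare unlike sets, and nothing is read from them. The median difference of the 78 was -0.01.

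Among 10 measured genes of other coat, neck and curvature proteins, 0 passed and the median difference was -0.04. ROR1, a receptor tyrosine kinase known to scaffold caveolin-1 and cavin-1, came nearest. Its deposited values were 7.29 and 7.22 with DMSO and 5.97 and 5.89 with nocodazole. At the lowest ROR1 was 1.61 above background, where MYOD1 was at least 2.17 above it on every array. The groups lay far apart, with a difference of -0.86 ± 0.14 (limma adjusted p = 0.0593). ROR1 passed where genes dim in both groups were left out (limma adjusted p = 0.0305) and after cyclic loess normalization (limma adjusted p = 0.0488). Its limma adjusted p was 2.86e-05 as deposited and 0.301 after median centring. With any 1 array left out the ROR1 difference ran from -0.91 to -0.80. DNM1, a dynamin that cuts vesicles from the membrane, had a difference of -0.34 ± 0.13 and EHD3, a relative of EHD2, one of 0.24 ± 0.16 (limma adjusted p = 0.473 and 0.768). CAV3 and CAVIN4, the muscle members of both families, had differences of -0.12 and 0.07, and CAVIN4 was above background on 2 of the 4 arrays.

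The receptors and signalling proteins of caveolae had members on both sides, and 0 of 11 passed. PRKCA, which encodes protein kinase C alpha, a binding partner of cavin-2, had deposited values of 7.82 and 8.08 with DMSO and 6.75 and 6.88 with nocodazole. The groups did not overlap, and the difference was -0.63 ± 0.14 (limma adjusted p = 0.168). TGFBR2, a TGF-beta receptor gene, had a difference of 0.57 ± 0.14 and PLAUR, the urokinase receptor gene, one of 0.43 ± 0.12 (limma adjusted p = 0.198 and 0.282). As deposited these were 0.05 and -0.08, so the direction of PLAUR depends on the scale. At an unadjusted p under 0.05 there were 6 of the 11, 3 in each direction, which is 54.5% against 9.38% of all genes, and the other lists had 0 to 3 such genes each.

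In the list of lipid supply 0 of 9 measured genes passed, with a median of 0.11. NPC1, which encodes the protein that exports cholesterol from lysosomes, had deposited values of 7.18 and 7.31 with DMSO and 7.57 and 7.61 with nocodazole. Both nocodazole arrays were higher on either scale, and the difference was 0.86 ± 0.13 (limma adjusted p = 0.0566), or 0.35 as deposited (limma adjusted p = 0.0928). NPC1 had a limma adjusted p of 0.0246 where dim genes were left out and of 0.0385 after cyclic loess. It was not called in either setting, as the rule also reads the deposited values. PTDSS2, a phosphatidylserine synthase gene, had a difference of 0.19 ± 0.13, and CD36, a fatty acid receptor gene, was below background on all 4 arrays, though its difference enters the median.

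Transcription factors linked to caveola genes had a median of -0.12 over 11 measured genes, and 0 passed. YAP1, the Hippo pathway coactivator, had a difference of -0.30 ± 0.12 and TEAD1, its DNA-binding partner, one of -0.29 ± 0.12 (limma adjusted p = 0.480 and 0.509). FOXO1, a forkhead factor, had one of 0.65 ± 0.23 (limma adjusted p = 0.415), with DMSO arrays spread at 5.48 ± 0.49 (SD, n = 2). The FOXO1 row was near background on DMSO replicate 2, 0.75 above it. Its difference was 0.31 without DMSO replicate 2 and 0.97 without DMSO replicate 3.

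The other lists had 0 genes past the test as well. Among kinases of caveolin and actin linkage the median was 0.03 over 9 genes, with ABL1, a tyrosine kinase gene, at -0.29 ± 0.12, CDC42 at 0.09 ± 0.12 and SRC at 0.07 ± 0.15. Flotillins and other raft scaffolds had a median of -0.02 over 6 genes, with FLOT1 at -0.17 ± 0.13, ERLIN1 at -0.26 ± 0.13 and STOM at 0.36 ± 0.16. Without DMSO replicate 3 these were -0.15 for ERLIN1 and 0.15 for STOM, and STOM was at 0.58 without DMSO replicate 2. Growth-arrest-specific genes, first found like SDPR in cells deprived of serum, had a median of -0.09 over 4 genes, with GAS6 at -0.13 ± 0.13 and GAS7 at -0.09 ± 0.16. GAS2, also in that median, was below background on all 4 arrays. Genes of the clathrin coat, another route of endocytosis, had a median of -0.02 over 18, with AP2A1 at -0.24 ± 0.11 and PICALM at 0.36 ± 0.11. AMPH, which encodes the membrane-bending protein amphiphysin, had the lowest value among them, -0.76 ± 0.15 (limma adjusted p = 0.115).

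**Figure D5:**
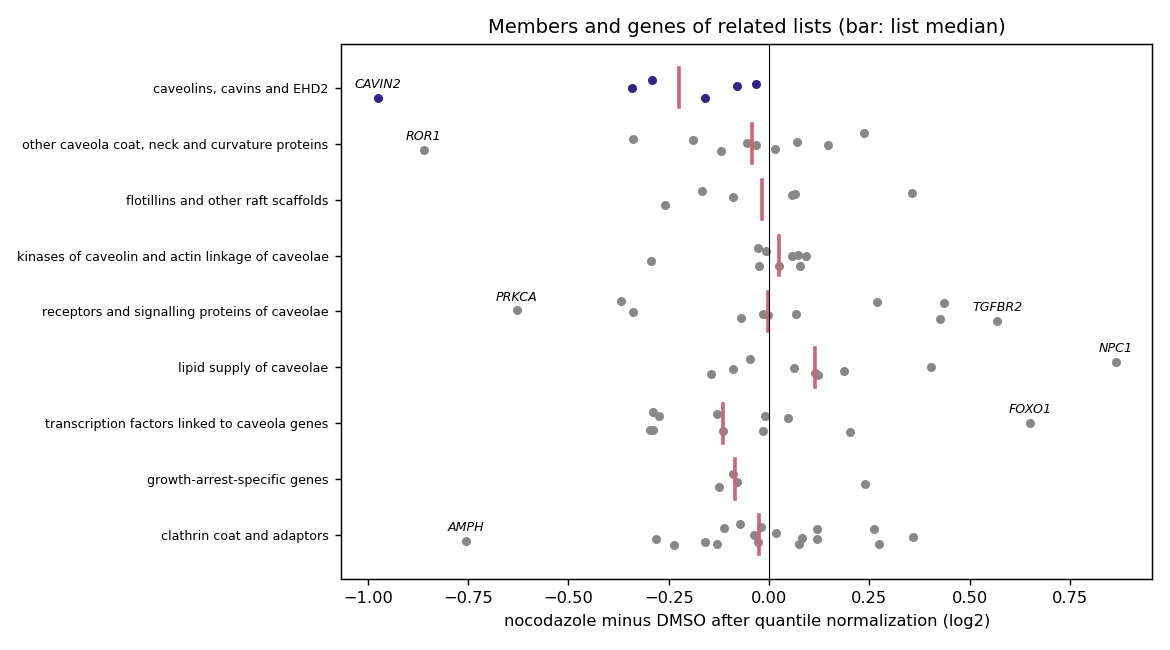
Nocodazole minus DMSO after quantile normalization (log2) for the 6 genes and for the measured genes of 8 related lists, 1 point per gene, with list medians as bars and genes beyond 0.5 named; vertical scatter within a row carries no value, and CD36 and GAS2 are drawn although below background on every array. CAVIN2 at -0.97 and ROR1 at -0.86 are the lowest points, and NPC1 at 0.86 is the highest.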

How the data were processed

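Per the submitters' processing notes, the authors' deposited log2 values came from Partek 7.0 and RMA (robust multi-array average) with the build hg19; their settings were not stated in what was used here. Base 2 was inferred from RMA and from the range, 0.50 to 14.3. Of 65535 rows, 1530 control rows were left out of the tests. Rows with 1 symbol were kept, and the row with the highest mean stood for a gene, which left 21469 genes. The 4 arrays were quantile normalized and fitted with limma 3.58.1 in R 4.3.3 (lmFit, eBayes with trend = TRUE, two-sided, Benjamini-Hochberg over all genes). Errors of differences are limma's SE, and the number of arrays limits precision. The series text calls the replicates biological; where cultures were not separate, p-values measure only the spread between samples. The steps were checked on simulated data with equal noise for every gene. That check required calls only of changes larger than the CAVIN2 difference, and it set no limit on false calls.

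The members, lists, rules and tests were chosen with earlier results of these data known, and cyclic loess was added after seeing the data. The text names the 6 members, in each list genes called on both scales and the 3 others with the largest moderated t (CAV3 and CAVIN4 besides, after their values were seen), the nearest measured gene on each side of a member, and the nearest profiles of CAVIN2 (5), CAV1 and CAVIN1 (3 each). Of the 90 listed genes, 12 had no row with their symbol alone and were not analysed here. Alternatives were the deposited, median-centred and cyclic loess scales, the replicate block, other variance settings, a filter on dim genes, the mean of a gene's rows and leaving out each array.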

Additional observations from a re-analysis of the deposited data

How the results depend on the processing

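The CAVIN2 difference was below 0 under all 12 alternatives. It was -1.45 as deposited and ran from -1.09 to -0.85 with 1 array left out, without DMSO replicate 2 and without DMSO replicate 3 respectively, against -0.97. CAV1, CAV2 and CAVIN1 were below 0 under all 12 as well, CAVIN3 ran from -0.48 to 0.07 and EHD2 from -0.60 to 0.11. The number of genes called was 52 on both scales, 5372 as deposited, 20 after median centring, 1 without a variance trend, 135 without dim genes, 86 after cyclic loess and 0 with any 1 array left out; higher calls were 59.6%, 0.931% as deposited, 95% after median centring and 46.5% after cyclic loess. These counts leave out genes below background on every array, so that 5322 genes, 24.8%, were lower as deposited, against 5341, 24.9%, with them. Of the 6 members 1 was called, 4 as deposited, and 0 after median centring, without a variance trend and with any 1 array left out. Of the related genes 0 were called, 40 as deposited, and 1, ROR1, both without dim genes and after cyclic loess. The labels number the replicates 2 and 3 in both groups. With the replicate number as a block, 37 genes were called, 34 of them among the 52, and CAVIN2 was among them. The replicate differences of the groups correlated across genes at 0.22, and at 0.41 as deposited, which does not show that the numbers pair the samples. The background median was lower on replicate 3 than on replicate 2 in both groups, 4.02 against 4.81 with DMSO and 3.72 against 4.36 with nocodazole. Whether the numbers mark a batch was not tested. Against values above 0 after quantile normalization, deposited differences were -0.26 for EHD3, -0.14 for STOM, -0.41 for SRC, -0.40 for CDC42, -0.081 for PLAUR, -0.033 for CD36, -0.29 for PTDSS2, -0.21 for GAS2, -0.15 for PICALM, -0.29 for ATP6V0A1, -0.029 for NABP1, -0.39 for TMEFF2 and -0.37 for CCKBR, as the array-wide shift lowers each. With 1 array left out the sign turned for SRC (from -0.045 to 0.18), CDC42 (from -0.026 to 0.21), MET (from -0.23 to 0.21), TMEFF2 (from -0.12 to 0.21) and CCKBR (from -0.039 to 0.20); none of these genes passed on both scales, and CD36, GAS2 and TMEFF2 were below background on every array. Rows near background can give imprecise differences. CAV2, the dimmest member, had the largest SE of the 6, 0.17. With 1 array left out its difference nonetheless ran only from -0.17 to -0.14.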
